A study of Mus musculus with 28 samples.

Results

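Endothelial cells sorted from mouse brains carrying breast cancer metastases were compared, gene by gene, with endothelial cells sorted in the same way from brains without a tumor. The comparison rests on 5 libraries from breast brain metastasis (BrM) and 5 from non-tumor brain, 10 of the 28 RNA-seq libraries of the series. All mice carried a PDGFRβ-CreERT2 driver and a Rosa-tdTomato reporter and received 2 mg tamoxifen on each of 5 days, so that cells using the Pdgfrb promoter (mural cells) became red. Tumor-bearing mice were injected into the heart with PyMT-BrM3 cells, a brain-seeking breast cancer line of the PyMT mammary tumor model. The non-tumor group is labelled as brain without a tumor, and 5 CD31 libraries of mice injected with Sv2T3-BrM1 lung cancer cells served only to share the estimate of spread and for a direct contrast. Cells negative for CD45, CD11B and EPCAM and positive for CD31 were collected, and the age and sex of the mice are not given in the labels. Each origin is represented by 1 cancer line. The cells came from whole sorted samples, so vessels inside and around metastases were not separated, and fewer cells of a type and less RNA per cell cannot be told apart.

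Brain capillaries are lined by endothelial cells that are joined by tight junctions, make few transport vesicles and carry many solute transporters. Together these features form the blood-brain barrier, which is kept up by Wnt signalling and by pericytes. When vessels sprout, endothelial tip cells lead and proliferating stalk cells follow, the basement membrane is rebuilt, and VEGF, angiopoietin and Notch signals guide the process. CD31, encoded by Pecam1, is an adhesion molecule of all endothelium, and claudin 5, encoded by Cldn5, is the main claudin of the barrier.

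Levels are given as CPM, read counts scaled to a common library total, in the order of mice 51950, 52599, 52865, 53072 and 53142 for breast BrM and 53680, 54132, 54135, 56727 and 56740 for non-tumor brain. Pecam1 stood at 863, 765, 832, 637 and 984 CPM in breast BrM, against 1361, 1328, 1307, 1381 and 1295 CPM in non-tumor brain. All libraries were thus rich in Pecam1, and all breast BrM libraries lay below all non-tumor libraries (log2 change -0.71 ± 0.17, SE, adjusted p = 0.0052). Cldn5 stood at 1282, 3143, 1699, 772 and 1427 CPM in breast BrM, against 2325, 2879, 2101, 2562 and 2634 CPM in non-tumor brain. The Cldn5 groups overlapped, as the library of mouse 52599 was the highest of all 10, and the difference was not called (log2 change -0.59 ± 0.30, adjusted p = 0.16). Without that library the log2 change of Cldn5 was -0.95 (adjusted p = 0.011). Genes of mural and blood cells were low. Pdgfrb averaged 0.294 ± 0.339 CPM in breast BrM and 0.895 ± 0.767 CPM in non-tumor brain (SD, n = 5 each). Ptprc, which encodes CD45, averaged 1.09 ± 1.26 CPM in breast BrM and 0.436 ± 0.304 CPM in non-tumor brain, and Itgam, which encodes CD11b, was too low to be tested.

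Epithelial RNA was present in every breast BrM library despite the EPCAM gate. Epcam, an epithelial adhesion molecule, stood at 76.8, 13.6, 33.2, 393 and 37.7 CPM in breast BrM, against 0, 0.765, 0.0545, 0 and 0.191 CPM in non-tumor brain. Krt8, a keratin of simple epithelia, stood at 320, 33.2, 72.1, 866 and 59.2 CPM in breast BrM, against 0, 1.06, 0.545, 0 and 0.716 CPM in non-tumor brain. The libraries of mice 53072 and 51950 held the most of both transcripts. The log2 change of Epcam was 9.10 ± 1.87 (7.63 without mouse 53072, and 10.6 without non-tumor mouse 54132), and that of Krt8 was 9.17 ± 1.31 (8.02 without mouse 53072). Over 18 epithelial reference genes the summed level was 1433, 181, 411, 3795 and 372 CPM in the breast BrM libraries and 3.53 to 14.1 CPM in the non-tumor libraries.

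**Figure D1:**
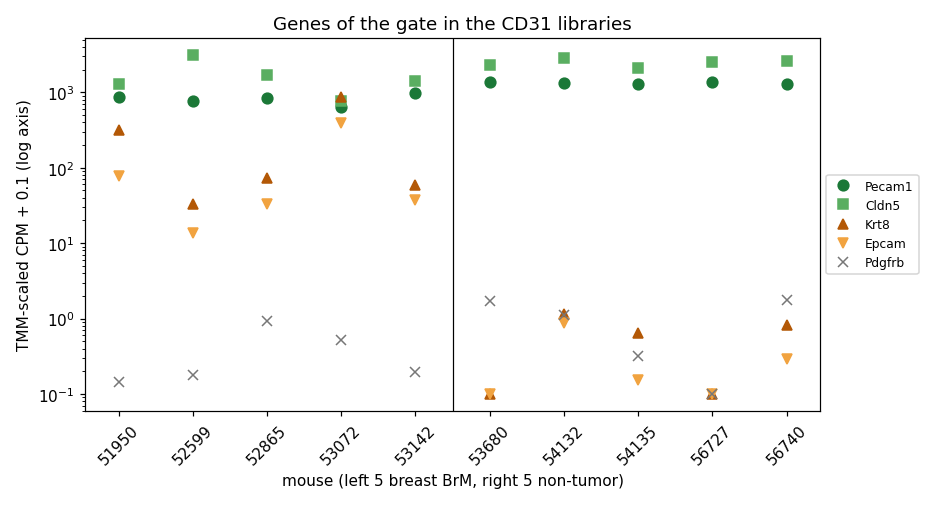
Level of 3 gate genes (Pecam1, Epcam, Pdgfrb), Cldn5 and Krt8 in each CD31 library (TMM-scaled CPM + 0.1, log axis), with 1 column per mouse, the 5 breast BrM mice left of the line and the 5 non-tumor mice right of it. Epcam and Krt8 lie between 13.6 and 866 CPM in breast BrM and at no more than 1.06 CPM in non-tumor brain, while Pecam1 stays between 637 and 1381 CPM in all libraries.

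Because of this epithelial RNA, each rise was set beside a carry-over share. For 4 breast BrM mice the mural-cell library of the same mouse was also deposited. That library was scaled so that its epithelial reference genes matched the CD31 library, and the scaled level of any gene, as a percentage of its CD31 level, estimates the share that could have arrived with epithelial RNA of that make-up. The scale was 0.953 for mouse 51950, 0.0764 for mouse 52599, 0.140 for mouse 52865 and 0.682 for mouse 53072. It rested on 7 reference genes for mouse 51950, and on 15, 17 and 17 for the other mice in that order. The mural-cell library of mouse 51950 was the smallest of all 28 libraries, with 7105172 counts and 9168 genes detected. The scale of that mouse, the largest of the 4, therefore rests on the least data. The share is an estimate and not a bound. Mural RNA in the mural-cell libraries adds to it, values above 100% can occur, and epithelial genes whose ratio lies above the median get less than 100%. For Pecam1 it was 0.195%, for Epcam 57.8% and for Krt8 100%.

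Of 14876 genes tested, 2772 rose in breast BrM (18.6%) and 1701 fell (11.4%), so that 30.1% were called in either direction (quasi-likelihood test in edgeR, adjusted p under 0.05 by Benjamini-Hochberg). The median log2 change was 0.04 over all genes tested, 1.91 over the rises and -1.10 over the falls. The largest changes were rises, with 1003 genes up and 177 down by at least 3 on the log2 scale. Among the rises, for 1189 (42.9%) the carry-over share reached 50% or more and are kept apart, and 907 (32.7%) had a share under 25%. Subtracting the mean non-tumor mural-cell profile, scaled to each mouse by pericyte markers, left 809 rises (29.2%) with a share of at least 50%. This step is meant below where mural RNA is taken out, and it leaves in any RNA that mural cells gain in tumors. Scaling by the 75th percentile of the ratios in place of the median gave 1319. Without mice 51950 and 53072, whose libraries held the most epithelial RNA, 862 of the 1189 rises with a large share were still called (72.5%), as were 1366 of the other 1583 rises (86.3%) and 1190 of the 1701 falls (70.0%). The groups did not overlap for 2316 of the 2772 rises, 1573 of the 1701 falls and 5590 of all 14876 genes tested (37.6%). Calls and overlap rest on the same values, so these counts are not a separate test. With the date in the library names as a covariate 1353 genes rose and 938 fell. Mouse 54135 was grouped by its titles, and its library titled CD31 held 1307 CPM of Pecam1 and 0.218 CPM of Pdgfrb. Non-tumor libraries titled PDGFRb averaged 5.59 CPM of Pecam1 and 1291 CPM of Pdgfrb. The cell type label of mouse 54135 names the opposite sort. The levels of Pecam1 and Pdgfrb in its library titled CD31 go with the title and not with that label. Grouping by that label (the label grouping) puts its library titled PDGFRb in place of the CD31 one among the controls, here and below. The label grouping thus sets a library of the mural sort, by its title, among the endothelial controls. Then 1477 genes rose and 913 fell. Of the 218 called genes named by rule, 69 lost their call, among them Pecam1, Mfsd2a, Tek, Birc5 and Ube2c. With the date as a covariate 54 of the 218 did. Of 104 counts of rises or falls per gene list, 44 moved by more than 1.5 times with the date covariate, 64 with the label grouping and 21 without mice 51950 and 53072.

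**Figure D2:**
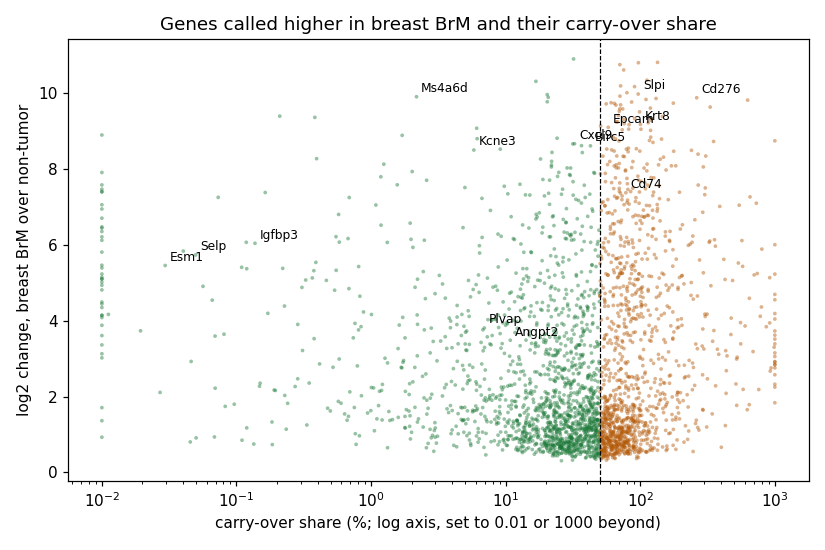
Each point is 1 of the 2772 genes called higher in breast BrM, placed by its carry-over share (percent, log axis) and its log2 change over non-tumor brain. The dashed line at 50% parts 1583 genes with a smaller share (green) from 1189 with a larger one (orange), among them Epcam and Krt8.

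The largest falls by the naming rule included a chemokine, a peptide signal and several membrane proteins. Cxcl12, a chemokine that holds CXCR4-bearing cells, stood at 84.9, 40.9, 65.03, 51.5 and 59.7 CPM in breast BrM, against 2918, 2302, 2512, 2107 and 2496 CPM in non-tumor brain. Its level was 40.8-fold lower (log2 change -5.35 ± 0.44, adjusted p = 2.4e-07), with no overlap between the groups. Edn3, an endothelin peptide, stood at 4.04, 3.62, 1.12, 3.77 and 1.49 CPM in breast BrM, against 191, 138, 177, 157 and 178 CPM in non-tumor brain (log2 change -5.91 ± 0.86, adjusted p = 7.2e-05). Sgpp2, a sphingosine-1-phosphate phosphatase, stood at 18.5, 2.08, 8.96, 11.97 and 3.90 CPM in breast BrM, against 428, 401, 427, 378 and 374 CPM in non-tumor brain (log2 change -5.46 ± 0.72, adjusted p = 3.0e-05). The non-tumor libraries lay close together for these genes, and the breast BrM libraries varied more in proportion to their level. Pllp, which encodes the membrane protein plasmolipin, averaged 13.5 ± 4.44 CPM in breast BrM and 441 ± 32.9 CPM in non-tumor brain (SD, n = 5 each). The guidance ligand Sema3c averaged 10.9 ± 6.90 CPM in breast BrM and 411 ± 70.3 CPM in non-tumor brain. Slc9a2, a sodium-proton exchanger, averaged 1.09 ± 0.735 CPM in breast BrM and 37.0 ± 3.04 CPM in non-tumor brain. For the remaining 4 falls named by the rule 1 library moved the value by more than 1.5 times. The log2 change of Slc26a10 was -6.11 (-7.08 without mouse 51950), that of Col14a1, a fibril-associated collagen, -5.69 (-6.78 without mouse 52599), and that of Cd83, an immunoglobulin-family protein of immune cells, -5.20 (-6.03 without mouse 53072). Ttr, the thyroxine carrier made in bulk by choroid plexus, stood at 2.31, 0, 0.0560, 0 and 0 CPM in breast BrM, against 3.18, 154, 7.08, 50.2 and 112 CPM in non-tumor brain. Its non-tumor libraries ranged widely, and its log2 change of -6.97 was -11.54 without mouse 51950.

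The largest rises with a share under 25% were low or close to absent in non-tumor brain. Kcne3, a potassium channel subunit, stood at 116, 197, 241, 135 and 298 CPM in breast BrM, against 0.205, 0.353, 1.199, 0.728 and 0.239 CPM in non-tumor brain. It was 362-fold higher (log2 change 8.499 ± 0.48, adjusted p = 5.2e-09, share 5.80%), and every breast BrM library exceeded every non-tumor library by far. Bdkrb2, the bradykinin B2 receptor, stood at 35.6, 40.9, 58.8, 24.7 and 69.0 CPM in breast BrM, against 0.102, 0, 0.436, 0.224 and 0.477 CPM in non-tumor brain (log2 change 7.47 ± 0.62, adjusted p = 2.5e-07, share 0%). Cpne7, a calcium-dependent membrane-binding protein, stood at 12.02, 24.9, 66.1, 25 and 71.4 CPM in breast BrM and at no more than 0.118 CPM in non-tumor brain (log2 change 9.36 ± 0.85, share 0.382%). Cd109, a surface protein that binds TGF-beta, stood at 36.2, 36.9, 56.0, 19.1 and 59.1 CPM in breast BrM and at no more than 0.327 CPM in non-tumor brain (log2 change 7.70 ± 0.47, share 2.59%). For these 4 genes the library of mouse 51950 or mouse 53072, the 2 with the most epithelial RNA, was the lowest of the breast BrM group. The cell source of their RNA was not tested. The cytosolic carbonic anhydrase Car13 rose by 7.32 ± 0.67 on the log2 scale. Ubd, an interferon-inducible ubiquitin-like modifier, stood at 6.30, 43.8, 2.07, 123 and 114 CPM in breast BrM (log2 change 9.89, and 11.47 without non-tumor mouse 56727). The other 4 genes of this set, Aurkb, Iqgap3, Mxd3 and Pimreg, act in or track cell division, and their log2 changes were 8.26, 7.70, 7.36 and 7.29. Each rested on a handful of non-tumor counts and moved when 1 library was left out, to 9.08 for Aurkb, 8.67 for Mxd3 and 8.51 for Pimreg without non-tumor mouse 56727, and to 8.67 for Iqgap3 without non-tumor mouse 56740.

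Genes of transport across the barrier were mostly lower in breast BrM, with 21 of 28 down and 1 up (median log2 change -1.83, against 0.04 over all genes). Slco1a4, an organic anion transporter, stood at 344, 333, 296, 286 and 196 CPM in breast BrM, against 3285, 3313, 3117, 3225 and 3515 CPM in non-tumor brain. Its level was 11.3-fold lower (log2 change -3.50 ± 0.27, adjusted p = 1.3e-07), and both groups were tight. Slc6a6, the taurine transporter, stood at 289, 189, 159, 209 and 156 CPM in breast BrM, against 2707, 3188, 3347, 2487 and 3112 CPM in non-tumor brain (log2 change -3.89 ± 0.29, adjusted p = 9.6e-08). The thiamine transporter Slc19a3 averaged 19.8-fold lower (log2 change -4.30 ± 0.35) and the organic anion transporter Slc22a8 16.4-fold lower (-4.03 ± 0.39). Abcb1a, the drug efflux pump P-glycoprotein, fell by 2.78 ± 0.20 on the log2 scale. Slc2a1, the glucose transporter of the barrier, fell by 1.44 ± 0.39, with overlap between the groups. Mfsd2a, a lysolipid transporter that also restrains vesicle transport, stood at 313, 240, 230, 196 and 156 CPM in breast BrM, against 772, 688, 768, 700 and 716 CPM in non-tumor brain (log2 change -1.68 ± 0.32, adjusted p = 0.00084). The single rise was the nucleoside transporter Slc29a1 (log2 change 1.75 ± 0.17, share 69.5%). With the date as a covariate 18 of the 28 were called down, and 10 were when the cell type label decided the group of mouse 54135. Under that placement neither Pecam1 nor Mfsd2a was called.

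Junction genes were mixed, with 10 of 20 down and 3 up (median log2 change -0.48), against 11.4% down and 18.6% up over all genes. Ocln, which encodes the tight junction protein occludin, stood at 157, 86.0, 79.7, 138 and 89.0 CPM in breast BrM, against 880, 813, 983, 818 and 906 CPM in non-tumor brain, 8.0-fold lower (log2 change -3.0 ± 0.38, adjusted p = 1.8e-05). Jcad, a junction protein of endothelium, fell by 2.47 ± 0.21 and Jam2, a junctional adhesion molecule, by 2.34 ± 0.24 on the log2 scale. Cdh5, the cadherin of endothelial adherens junctions, rose instead, with 573 ± 268 CPM in breast BrM and 266 ± 40.3 CPM in non-tumor brain (log2 change 1.10 ± 0.28, adjusted p = 0.0071, share 2.95%). Cgn, the gene of the tight junction protein cingulin, was low, at 0.848 to 13.3 CPM in breast BrM, and its log2 change of 6.09 was 5.01 without mouse 53072 and 9.23 without non-tumor mouse 54132 (share 48.5%). Junction genes numbered 5 down and 1 up with the date covariate, and also with the label grouping. Without mice 51950 and 53072 there were 7 and 1.

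Genes of vesicle transport and permeability split in both directions, with 4 of 16 up and 6 down (median log2 change -0.24). Called rises numbered 2 with the date covariate. Plvap, which forms the diaphragms of permeable vessels, stood at 114, 149, 257, 119 and 252 CPM in breast BrM, against 13.1, 8.88, 12.3, 11.5 and 17.7 CPM in non-tumor brain. It was 14.0-fold higher with no overlap (log2 change 3.81 ± 0.51, adjusted p = 3.5e-05, share 6.94%). Within 1 of the 2 dates shared by both groups it averaged 116 CPM in 2 breast BrM libraries and 13.1 CPM in 1 non-tumor library, and within the other date 219 CPM in 3 breast BrM libraries and 12.3 CPM in 1 non-tumor library. Coat proteins of caveolae fell, Cavin2 by 2.46 ± 0.20 and Cav2 by 1.93 ± 0.26 on the log2 scale. Tfrc, the transferrin receptor, fell by 2.80 ± 0.25.

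Of 23 Wnt genes of the barrier 13 fell and 2 rose, both rises with a share of at least 50% (median log2 change -1.06). The date covariate gave 8 falls and the label grouping 6, and neither rise was called under these settings. Without mice 51950 and 53072 there were 8 falls and 1 rise. Tnfrsf19, a Wnt-regulated receptor of the TNF receptor family, stood at 42.6, 46.7, 31.0, 27.4 and 13.0 CPM in breast BrM, against 457, 479, 388, 520 and 533 CPM in non-tumor brain (log2 change -3.89 ± 0.52, adjusted p = 3.4e-05). Reck, a co-receptor for WNT7 ligands, fell by 3.10 ± 0.38 on the log2 scale. The Wnt target genes Notum and Axin2 fell by 4.70 ± 0.84 and 2.38 ± 0.64. The groups did not overlap for these 4 genes, and Axin2 was no longer called with the date as a covariate, or without mice 51950 and 53072.

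**Figure D3:**
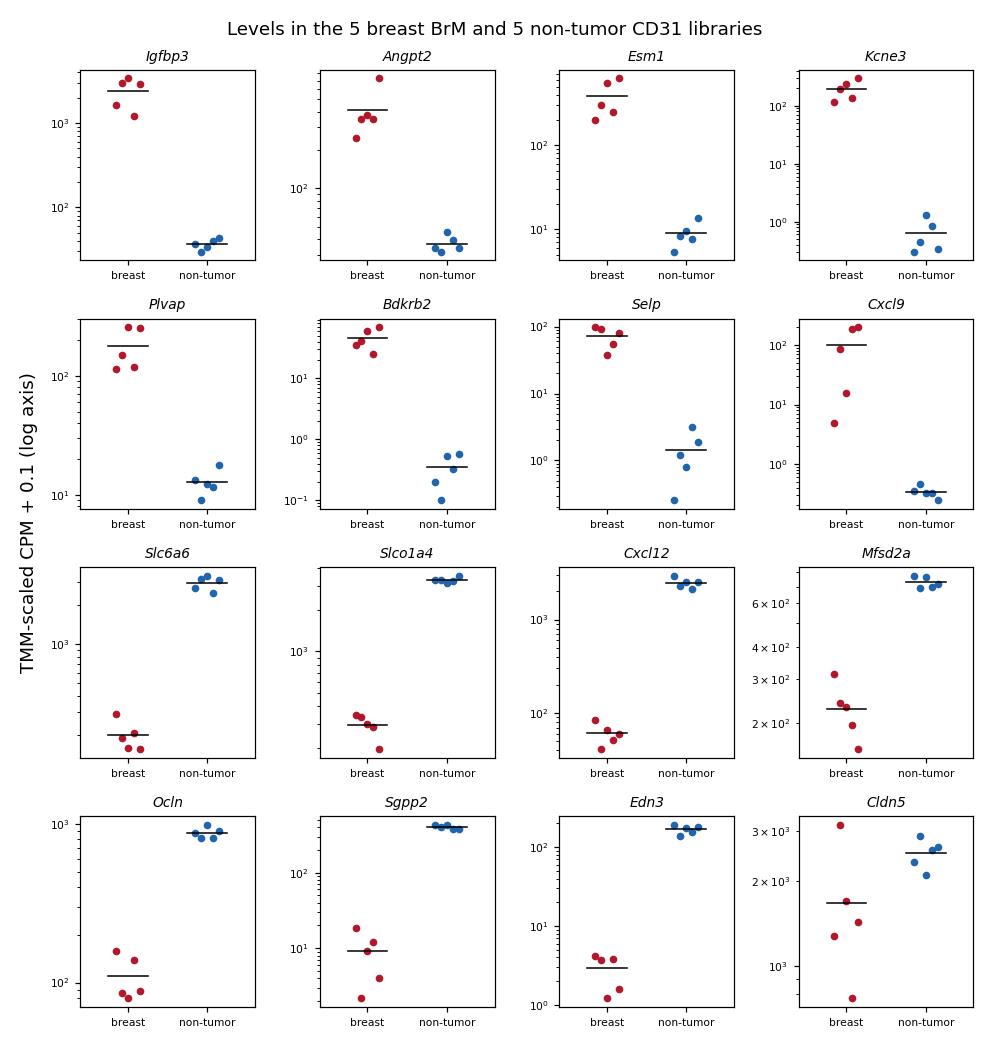
Level of 16 genes in each of the 5 breast BrM (red) and 5 non-tumor (blue) CD31 libraries (TMM-scaled CPM + 0.1, a separate log axis per gene), with the group mean as a bar. Igfbp3, Angpt2, Esm1, Kcne3, Plvap, Bdkrb2, Selp and Cxcl9 are higher in all breast BrM libraries, the next 7 genes are lower in all of them, and Cldn5 overlaps.

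Identity genes of capillaries, arteries and veins held calls in both directions. Of 11 capillary genes 7 fell and 1 rose (median log2 change -1.68). Car4, a carbonic anhydrase of the capillary surface, stood at 154, 251, 168, 205 and 34.7 CPM in breast BrM, against 2172, 2332, 2356, 2476 and 2206 CPM in non-tumor brain, and the library of mouse 53142 was the lowest (log2 change -3.83 ± 0.46, adjusted p = 1.1e-05). The exception was Gpihbp1, which anchors lipoprotein lipase to capillaries and is low in normal brain. It stood at 48.9, 87.8, 200, 53.01 and 146 CPM in breast BrM, against 5.99, 4.35, 2.62, 8.74 and 7.49 CPM in non-tumor brain (log2 change 4.19 ± 0.64, adjusted p = 0.00012, share 0.171%). Of 24 arterial genes 9 fell and 5 rose (median log2 change -0.64), while of all genes 11.4% fell and 18.6% rose. Gkn3, an arterial marker of mouse brain, fell by 4.56 ± 0.70 on the log2 scale, and Alpl, an alkaline phosphatase, by 3.73 (4.48 without mouse 53072). Cxcr4, the receptor for CXCL12, stood at 13.2, 27.1, 40.4, 12.6 and 41.3 CPM in breast BrM and at no more than 0.392 CPM in non-tumor brain (log2 change 7.22 ± 0.60, adjusted p = 2.6e-07, share 6.67%). Thus the receptor and its ligand moved in opposite directions in these libraries. The label grouping gave 4 falls of capillary genes, and 5 falls and 3 rises of arterial genes.

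Of 18 venous genes 8 rose and 1 fell, and 1 of the rises had a share of at least 50% (median log2 change 0.82). Selp, the P-selectin that captures leukocytes on venules, stood at 97.6, 91.8, 36.9, 55.7 and 78.9 CPM in breast BrM, against 0.154, 1.12, 0.708, 3.02 and 1.77 CPM in non-tumor brain (log2 change 5.73 ± 0.55, adjusted p = 1.0e-06, share 0.0497%). Lrg1, a secreted modulator of TGF-beta signalling in vessels, stood at 761, 1223, 302, 233 and 413 CPM in breast BrM, against 33.3, 48.5, 21.0, 44.99 and 55.0 CPM in non-tumor brain (log2 change 3.85 ± 0.46, adjusted p = 1.1e-05). Every breast BrM library of both genes lay above every non-tumor library. Vwf, von Willebrand factor, averaged 2325 ± 1088 CPM in breast BrM and 1030 ± 205 CPM in non-tumor brain (log2 change 1.17 ± 0.28, adjusted p = 0.0047). Sele, the E-selectin, rose by 2.36 ± 0.58 on the log2 scale and was not called with the date as a covariate.

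Among general endothelial genes falls outnumbered rises. Of 24 core genes 8 fell and 3 rose, and of 32 endothelial transcription factors 10 fell and 3 rose (median log2 changes -0.27 and -0.34). All genes tested gave 11.4% falls and 18.6% rises. Ly6c1, a surface antigen of mouse endothelium, stood at 1228, 1773, 1372, 1017 and 1105 CPM in breast BrM, against 7112, 7320, 8124, 7414 and 7117 CPM in non-tumor brain (log2 change -2.51 ± 0.19, adjusted p = 1.0e-07). Flt1, VEGF receptor 1, fell by 1.37 ± 0.19 on the log2 scale. Kdr, VEGF receptor 2, averaged 1413 ± 341 CPM in breast BrM and 1567 ± 108 CPM in non-tumor brain and was not called (log2 change -0.15 ± 0.18, adjusted p = 0.59). Among the transcription factors Tbx3 fell by 3.12 ± 0.68 and Gata2 by 1.77 ± 0.18, while Meox1 rose by 2.15 ± 0.26. With the label grouping edgeR called 0 of the 24 core genes (1 had an unadjusted p under 0.05) and 1 transcription factor in each direction, and Ly6c1, Flt1 and Gata2 were not among the calls. The date covariate gave 7 falls of core genes, and 7 falls and 1 rise of transcription factors. Without mice 51950 and 53072 there were 6 falls and 6 rises of transcription factors.

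Genes of tip cells and sprouting rose in 25 of 31 cases with edgeR and none fell, also at an unadjusted p under 0.05, with DESeq2 or with limma-voom (median log2 change 3.59, against 0.04 over all genes). For 4 of the 25 rises the share reached 50%, and 21 of the 31 were called up with the date as a covariate. Igfbp3, a carrier of insulin-like growth factors, stood at 1639, 2942, 3378, 1200 and 2918 CPM in breast BrM, against 37.1, 29.9, 33.6, 39.8 and 43.0 CPM in non-tumor brain. It was 65.8-fold higher (log2 change 6.04 ± 0.39, adjusted p = 2.0e-08, share 0.137%), and the lowest breast BrM libraries were those of mice 53072 and 51950. Esm1, a proteoglycan secreted by tip cells, stood at 200, 302, 558, 249 and 628 CPM in breast BrM, against 5.33, 8.18, 9.54, 7.45 and 13.6 CPM in non-tumor brain (log2 change 5.46 ± 0.47, adjusted p = 3.5e-07, share 0.0295%). Fscn1, an actin-bundling protein of filopodia, stood at 144, 204, 187, 102 and 226 CPM in breast BrM and at 0.824 to 3.19 CPM in non-tumor brain (log2 change 6.28 ± 0.32, adjusted p = 2.0e-09). Chst1, a keratan sulfate sulfotransferase, rose by 6.12 ± 0.47, and Apln, the peptide ligand of the apelin receptor, by 5.41 ± 0.36 (shares 2.49% and 0.109%).

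Signalling systems of sprouting held both rises and falls. In the VEGF system 6 of 12 genes rose and 2 fell, and 3 of the rises had a share of at least 50%. Plxnd1, a semaphorin receptor, rose by 2.45 ± 0.26 on the log2 scale, and Nrp2, a co-receptor for VEGF-C and semaphorins, by 1.36 ± 0.24. Vegfc, a lymphangiogenic VEGF, fell by 1.59 ± 0.34 and was not called with the date as a covariate. Of 7 tested genes of the angiopoietin and TIE system 2 rose and 2 fell. Angpt2, the ligand that antagonises TIE2, stood at 248, 352, 375, 352 and 728 CPM in breast BrM, against 34.0, 31.8, 45, 38.9 and 33.8 CPM in non-tumor brain, 11.2-fold higher (log2 change 3.48 ± 0.34, adjusted p = 1.3e-06, share 10.8%). Tek, which encodes TIE2 itself, stood at 495, 361, 366, 214 and 333 CPM in breast BrM, against 1341, 1254, 1300, 1215 and 1373 CPM in non-tumor brain (log2 change -1.88 ± 0.20, adjusted p = 2.8e-06). Ptprb, the phosphatase that keeps TIE2 inactive, fell by 1.28 ± 0.22. The ligand was higher and the receptor and its phosphatase lower in every breast BrM library than in any non-tumor library. The date covariate gave 2 rises and 1 fall in the VEGF system and 1 rise and 2 falls in the angiopoietin system. In the label grouping 2 VEGF genes and 1 angiopoietin gene rose, and none of the 4 falls was called.

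In the Notch system 3 of 18 genes rose and 3 fell, near the 18.6% and 11.4% of all genes. Nrarp, a feedback target of Notch, stood at 26.1, 56.7, 43.4, 16.4 and 45.9 CPM in breast BrM, against 1.33, 1.29, 4.25, 3.87 and 1.48 CPM in non-tumor brain (log2 change 3.94 ± 0.44, adjusted p = 5.7e-06). The receptor Notch4 rose by 2.14 ± 0.42, a call that was lost with the date as a covariate, and Rbpj, the DNA-binding partner of Notch receptors, fell by 0.84 ± 0.17. Genes of TGF-beta and BMP signalling rose in 8 of 26 cases, 5 of them with a share of at least 50%, and fell in 9. Inhbb, an activin subunit, rose by 6.21 ± 0.61 on the log2 scale and Bmp6 by 3.28 ± 0.52, while Ltbp4, which stores latent TGF-beta in the matrix, fell by 2.62 ± 0.25. Smad9, a BMP-responsive transcription factor, had counts in 1 of the 5 breast BrM libraries, at 0.154 CPM, and stood at 1.82 to 4.90 CPM in non-tumor brain (log2 change -6.64, and -8.82 without mouse 52599). Guidance cues and receptors rose in 11 of 26 cases and fell in 4. Among them Robo1, a SLIT receptor, rose by 4.27 ± 0.83 and Sema3f, a semaphorin, by 3.95 ± 0.50. The rises of the TGF-beta and BMP list numbered 5 with the date covariate, and 5 beside 4 falls with the label grouping, which gave 7 rises of guidance genes.

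Many genes of the vessel wall's matrix and its receptors rose. Of 19 basement membrane genes 12 rose and 2 fell (median log2 change 2.24), with a share of at least 50% in 6 of the rises. With mural RNA taken out of the estimate, that number was 2. Col4a2, a type IV collagen chain, stood at 2355, 2871, 4221, 1384 and 4132 CPM in breast BrM, against 619, 371, 560, 452 and 472 CPM in non-tumor brain (log2 change 2.597 ± 0.28, adjusted p = 3.5e-06, share 34.6%). Lama4, the laminin chain of endothelial basement membranes, rose by 2.49 ± 0.23, and the laminin linker Nid2 by 2.36 ± 0.25 on the log2 scale. The laminin chain Lamc3 fell by 4.23 ± 0.95. Integrin subunits, the receptors for these proteins, rose in 8 of 13 cases and fell in 1 (median log2 change 1.70). Itgb3, a subunit of the vitronectin receptor, stood at 97.7, 133, 104, 92.4 and 192 CPM in breast BrM, against 6.81, 9.06, 4.96, 4.87 and 5.44 CPM in non-tumor brain (log2 change 4.31 ± 0.33, adjusted p = 1.2e-07, share 13.7%). The collagen receptor subunit Itga2 rose by 4.59 ± 0.55 and the fibronectin receptor subunit Itga5 by 2.19 ± 0.21. With the date covariate 5 integrin subunits were called up. The share was at least 50% for 4 of the 8 rises, or for 1 with mural RNA taken out.

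Enzymes that cut or build the matrix held rises on both sides of the 50% limit. Matrix proteases and inhibitors rose in 8 of 19 cases and fell in 2. Adam12, a membrane metalloproteinase, stood at 18.5, 30.0, 96.3, 22.9 and 71.9 CPM in breast BrM and at no more than 0.896 CPM in non-tumor brain (log2 change 6.91 ± 0.79, share 7.71%). The proteoglycan-cutting Adamts4 rose by 6.39 ± 0.46 with a share of 49.3%, and Plat, the tissue plasminogen activator, fell by 1.35 ± 0.28. Genes of the glycocalyx and of heparan sulfate rose in 9 of 21 cases, 4 of them with a share of at least 50%, and fell in 2. Among the rises were the heparan sulfate polymerase Ext1 (log2 change 3.57 ± 0.39) and the core protein perlecan, Hspg2 (2.01 ± 0.24). Extl3 fell by 1.96 ± 0.22. Of 25 interstitial matrix genes 7 rose and 2 fell, Eln and Col14a1. All 7 rises had a share of at least 50%. One was that of Thbs1, a thrombospondin, with 395 CPM in the library of mouse 53072 and 24.03 to 110 CPM in the others (log2 change 4.67, and 3.49 without that library). Genes of the insulin-like growth factor system rose in 9 of 14 cases and fell in 1. Igfbp4 stood at 613, 369, 619, 245 and 592 CPM in breast BrM, against 17.6, 15.1, 28.4, 16.2 and 38.8 CPM in non-tumor brain (log2 change 4.39 ± 0.33, adjusted p = 8.0e-08, share 15.4%). Igf2r, which clears IGF2, rose by 2.81 ± 0.31, and the receptor Igf1r fell by 2.62 ± 0.33. Genes of actin and migration rose in 20 of 31 cases, 10 with a share of at least 50%, and fell in 2. Marcksl1, an actin-regulating protein, rose by 6.14 ± 0.26 on the log2 scale (adjusted p = 5.4e-10, share 32.1%). Genes of an endothelial to mesenchymal change gave 3 rises and 1 fall among 14, against 18.6% and 11.4% of all genes. There were 1 rise and 3 falls with the label grouping. That grouping also gave 2 rises of interstitial matrix genes, and 5 of the glycocalyx list, where the date covariate gave 5 too. With mural RNA taken out 5 of the actin and migration rises had a share of at least 50%.

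**Figure D4:**
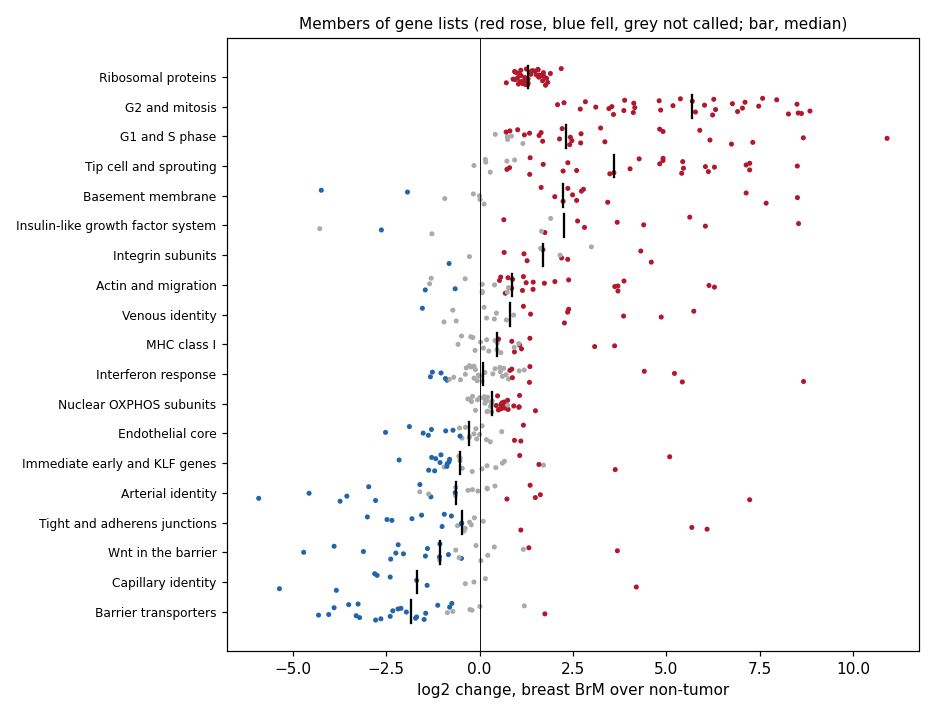
Log2 change (breast BrM over non-tumor) of every tested member of 19 gene lists, 1 row per list, with red for genes that rose, blue for genes that fell, grey for genes not called and a bar at the median. Medians run from 5.69 for genes of G2 and mitosis and 3.59 for tip cell and sprouting genes to -1.83 for barrier transporters.

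Cell division genes were mostly higher in breast BrM. All 35 genes of G2 and mitosis rose, with no overlap between the groups in any of them (median log2 change 5.69), and 11 of them had a share of at least 50%. Birc5, the mitotic protein survivin, stood at 73.4, 64.9, 92.1, 82.6 and 55.7 CPM in breast BrM, against 0, 0.235, 0.0545, 0.336 and 0.286 CPM in non-tumor brain (log2 change 8.61 ± 0.49, adjusted p = 4.7e-09, share 42.6%). Ube2c, which tags cyclins for destruction, rose by 7.57 ± 0.47 (share 38.4%). Cdk1, the kinase that drives entry into mitosis, averaged 105 ± 27.5 CPM in breast BrM and 1.31 ± 0.625 CPM in non-tumor brain (log2 change 6.31 ± 0.37, share 18.6%). Its partner Ccnb2, cyclin B2, averaged 66.3 ± 10.5 CPM in breast BrM and 0.135 ± 0.0980 CPM in non-tumor brain (log2 change 8.84 ± 0.41), with a share of 120%, so the same step of the cycle held genes on both sides of the 50% limit. Bub1, a spindle checkpoint kinase, had 2 counts over the non-tumor libraries and a ratio of 483 (95% counting interval 133 to 3995). In G1 and S phase 25 of 30 genes rose (median log2 change 2.31), 6 with a share of at least 50%. E2f1, the transcription factor that opens S phase, stood at 12.4, 9.26, 16.5, 16.7 and 13.8 CPM in breast BrM and had no counts in non-tumor brain, at least 433-fold higher against 3 counts over that group. Without mice 51950 and 53072, 33 of 35 genes of G2 and mitosis and 22 of 30 of G1 and S phase were called up. With the label grouping those numbers were 6 and 11. Genes of p53 and of cell cycle inhibitors gave 4 rises and 3 falls among 20, or 2 and 1 with the date covariate. The first pair is near the 18.6% and 11.4% of all genes.

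The promoters of the mitotic genes are shown because these genes rose together and share a known pair of elements, the cell cycle homology region (CHR) and CCAAT boxes. RefSeq windows from 250 bases before to 50 bases after the start (build GRCm38.p6, strand -) are printed for Ccnb2, chr9:70421505-70421804, and Cdk1, chr10:69352863-69353162, with TTTGAA and CCAAT, or their reverse complements, in capitals.
Ccnb2: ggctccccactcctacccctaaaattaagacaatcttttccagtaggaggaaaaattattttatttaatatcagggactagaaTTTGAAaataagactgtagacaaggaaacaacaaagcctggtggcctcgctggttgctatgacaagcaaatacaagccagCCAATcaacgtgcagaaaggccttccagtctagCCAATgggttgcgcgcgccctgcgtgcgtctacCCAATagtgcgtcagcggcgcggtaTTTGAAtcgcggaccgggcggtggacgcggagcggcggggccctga
Cdk1: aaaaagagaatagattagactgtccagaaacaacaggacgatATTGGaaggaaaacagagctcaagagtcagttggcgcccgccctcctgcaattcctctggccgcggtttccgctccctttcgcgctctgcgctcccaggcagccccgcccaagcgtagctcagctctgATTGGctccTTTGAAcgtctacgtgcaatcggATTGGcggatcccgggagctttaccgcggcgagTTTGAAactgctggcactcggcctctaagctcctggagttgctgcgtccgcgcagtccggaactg
Each window held 2 matches to TTTGAA and 3 to CCAAT on either strand, and the motifs do not overlap. Windows were found for 30 of the 35 genes. TTTGAA occurred in 25 of their 32 windows (78.1%), against 17.9% of all 32851 windows in the table. CCAAT also occurred in 25 of the 32 (78.1%), against 37.4% of all windows, and both together in 22 (68.8%), against 6.95%. A match describes the letters of the window and does not show binding.

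All 42 ribosomal protein genes tested rose, by 0.72 to 2.19 on the log2 scale (median log2 change 1.29). The share was at least 50% for 17 of them, or for 8 with mural RNA taken out. Because ribosomal protein genes have many processed copies, their single values are uncertain. Rps2 stood at 1106, 1622, 1449, 900 and 1216 CPM in breast BrM, against 319, 319, 335, 350 and 368 CPM in non-tumor brain (log2 change 1.90 ± 0.20, adjusted p = 2.9e-06, share 42.9%). All 42 were also called up without mice 51950 and 53072, and 41 with the label grouping. Genes of ribosome assembly and MYC targets rose in 14 of 25 cases, 9 of them with a share of at least 50%, or 6 with mural RNA taken out. Odc1, the first enzyme of polyamine synthesis and a MYC target, stood at 137, 670, 199, 99.5 and 221 CPM in breast BrM, against 17.4 to 26.2 CPM in non-tumor brain (log2 change 3.73, and 3.03 without mouse 52599). Nuclear genes of oxidative phosphorylation rose in 18 of 39 cases, or in 6 with the label grouping (median log2 change 0.34). The share was at least 50% for 11 of the 18, or for 7 with mural RNA taken out. Cox7b, a subunit of cytochrome c oxidase, had the largest rise among those with a share under 50%, 1.05 ± 0.19 on the log2 scale. Genes of protein folding and collagen processing rose in 13 of 27 cases, led by Fkbp10, a collagen chaperone (log2 change 3.64 ± 0.26, adjusted p = 6.2e-08, share 32.2%), and Sdf2l1, a stress-induced chaperone cofactor (2.24 ± 0.23).

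Genes of hypoxia and glycolysis rose in 18 of 31 cases and fell in 3, and 12 of the rises had a share of at least 50%, or 7 with mural RNA taken out. Rises numbered 10 with the date covariate. Car9, a hypoxia-induced carbonic anhydrase, stood at 2.13, 1.003, 2.30, 6.60 and 3.995 CPM in breast BrM and had no counts in non-tumor brain, at least 102-fold higher against 3 counts over that group. Ndrg1, a hypoxia and stress gene, fell by 2.03 (3.05 without mouse 52599, whose library held 560 CPM against 64.3 to 123 CPM in the other 4). Genes of the immediate early response and of the KLF family fell in 11 of 27 cases and rose in 4, and the falls numbered 7 with the date covariate and 1 with the label grouping. Dusp1, a MAP kinase phosphatase induced within minutes of stress, fell by 1.36 ± 0.35 on the log2 scale, while Fosl2, an AP-1 subunit, rose by 1.59 ± 0.29. Of 22 targets of glucocorticoids and the clock 6 fell and 2 rose, or 3 and 1 with the date covariate. Fkbp5, a glucocorticoid-induced chaperone, went the other way, with 57.2, 58.3, 53.3, 37.5 and 54.7 CPM in breast BrM, against 7.43, 1.41, 4.47, 2.69 and 2.91 CPM in non-tumor brain (log2 change 3.78 ± 0.47, adjusted p = 1.8e-05, share 40.4%).

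Metabolic genes and carriers held calls in both directions, and of all genes 18.6% rose and 11.4% fell. In the iron and heme list 5 of 16 genes rose, 4 of them with a share of at least 50%, and 3 fell. The rises numbered 2 with the date covariate and 3 with the label grouping or without mice 51950 and 53072. The iron exporter Slc40a1, ferroportin, fell by 2.18 ± 0.28 on the log2 scale, and Flvcr2, a choline and heme carrier, by 2.42 ± 0.31. Fth1, the heavy chain of the iron store ferritin, stood at 5018, 10660, 2880, 3861 and 2875 CPM in breast BrM, against 1236, 1589, 1104, 1720 and 1649 CPM in non-tumor brain (log2 change 1.79 ± 0.32, adjusted p = 0.00046). Of 19 fatty acid genes 5 fell and 2 rose, with Cpt1a, the carnitine palmitoyltransferase of mitochondria, down by 1.47 ± 0.18. Of 20 cholesterol synthesis genes 2 rose, both with a share of at least 50%, and 1 fell. Among 19 genes of sphingosine phosphate and related lipids 4 rose and 3 fell, with 1 rise under the date covariate and under the label grouping. Of the 4 rises 3 had a share of at least 50%, or 1 with mural RNA taken out. Plpp3, which breaks down lipid phosphates, rose by 2.77 ± 0.39 and the receptor S1pr1 fell by 1.28 ± 0.19. Of 22 vasoactive genes 7 rose and 5 fell, none of the rises with a share of at least 50%, and the date covariate gave 4 up and 3 down. Npr3, the clearance receptor of natriuretic peptides, stood at 33.9, 24.8, 44.5, 12.3 and 43.6 CPM in breast BrM, against 0.461, 1.18, 0.381, 2.13 and 1.24 CPM in non-tumor brain (log2 change 4.88 ± 0.58, adjusted p = 9.9e-06). Ednrb, the endothelin B receptor, rose by 4.03 ± 0.49, while its ligand gene Edn3 was among the largest falls.

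Genes that meet immune cells moved unevenly. Of 18 leukocyte adhesion genes 7 rose and 3 fell, with 1 fall in the label grouping. Besides the selectins, Mcam, an endothelial adhesion molecule also made by pericytes, stood at 583, 773, 1029, 482 and 1240 CPM in breast BrM, against 29.5, 21.1, 34.7, 24.1 and 36.1 CPM in non-tumor brain (log2 change 4.82 ± 0.29, adjusted p = 9.1e-09), with a share of 47.5%, or 14.2% with mural RNA taken out. Vcam1, a receptor for leukocyte integrins, stood at 92.8, 135, 46.0, 141 and 115 CPM in breast BrM, against 218, 320, 276, 333 and 381 CPM in non-tumor brain (log2 change -1.53 ± 0.41, adjusted p = 0.0092). That call was lost with the date as a covariate. Icam1, its counterpart for LFA-1, stood at 282, 317, 122, 165 and 184 CPM in breast BrM, against 165, 167, 220, 214 and 173 CPM in non-tumor brain, and was not called (log2 change 0.19 ± 0.23, adjusted p = 0.59). Genes of NF-kB and TNF signalling rose in 3 of 18 cases and fell in 2, near the share of all genes called, and the date covariate gave 1 of each. Among the rises were Tnfaip2 (log2 change 4.72 ± 0.49) and Bcl3 (1.71 ± 0.38), the second without a call when the date was a covariate.

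Checkpoint ligands and relatives rose in 9 of 20 cases, 5 with the label grouping, and fell in 1. For this list and the 3 that follow, all genes gave 18.6% rises and 11.4% falls. Cd276, which encodes B7-H3, stood at 20.8, 9.41, 8.85, 19.6 and 25.5 CPM in breast BrM and had 1 count over the 5 non-tumor libraries, a ratio of 1652 (95% counting interval 296 to 65300). Its share was 263%, or 248% with mural RNA taken out, so its level in the CD31 sort was below the scaled level of the mural-cell libraries (log2 change 9.88, and 11.2 without non-tumor mouse 54132). The mural-cell libraries averaged 64.7 CPM of Cd276 in breast BrM and 8.11 CPM in non-tumor brain. Which cells that RNA came from was not tested. Nectin2, a ligand of TIGIT, stood at 193, 279, 220, 123 and 261 CPM in breast BrM, against 28.6, 29.9, 21.3, 28.5 and 28.6 CPM in non-tumor brain (log2 change 2.98 ± 0.20, adjusted p = 3.2e-08, share 12.7%). The related Pvr rose by 1.03 ± 0.21 and the butyrophilin Btnl9 by 3.361 ± 0.46. Chemokines and cytokines rose in 6 of 20 cases, 4 of them with a share of at least 50%, and fell in 3, including Tnfsf10, which encodes TRAIL (log2 change -1.36 ± 0.32, not called with the date as a covariate). Complement genes rose in 11 of 20 cases, 8 with a share of at least 50%. Complement rises numbered 2 with the date covariate, 5 with limma-voom or the label grouping, and 6 without mice 51950 and 53072. Cd93, a receptor of sprouting endothelium, rose by 1.80 ± 0.20 (share 0.0963%), and Cd59a, which blocks the membrane attack complex, fell by 2.56 ± 0.20. Genes of coagulation and fibrinolysis rose in 11 of 21 cases and fell in 4, or 7 and 1 with the label grouping. Mmrn1, a factor V carrier, rose by 5.10 ± 0.68 (share 0%), and Procr, the endothelial protein C receptor, by 1.48 ± 0.19.

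Of 9 MHC class II genes 8 rose, and 6 of the 8 had a share of at least 50%. Their summed level was 47.9, 532, 55.2, 1477 and 1637 CPM in the breast BrM libraries, against 9.73 to 13.0 CPM in non-tumor brain. The libraries of mice 52599, 53072 and 53142 were high and the other 2 low, while the epithelial reference genes were highest in mice 53072 and 51950. Mouse 53142 does not enter the share, and the part of epithelial RNA in these levels was not tested. Cd74, the invariant chain, stood at 16.01, 346, 18.03, 904 and 1017 CPM in breast BrM, against 1.33, 3.29, 4.69, 2.58 and 2.00 CPM in non-tumor brain (log2 change 7.37 ± 1.39, adjusted p = 0.00073, share 78.2%). The date covariate gave 1 MHC class II gene called, limma-voom in place of edgeR 2 and the label grouping 3. Summed markers of microglia and macrophages, which also carry MHC class II, were 81.5 to 253 CPM in breast BrM and 53 to 82 CPM in non-tumor brain. Their part in the result was not tested.

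Interferon genes were called up about as often as all genes against non-tumor brain, and many differed between the cancer origins. Against non-tumor brain 9 of 40 rose and 5 fell (median log2 change 0.10), or 5 and 1 with the date covariate. The label grouping gave 6 rises, and none of the 5 falls was called. In the direct contrast of the 5 breast with the 5 lung BrM libraries, 32 of the 40 were higher in breast BrM and none lower, also at an unadjusted p under 0.05. DESeq2 placed 36 of them higher and limma-voom 33, and neither tool placed any lower. Over all genes that contrast called 1.55% higher and 0.578% lower in breast BrM. The summed level of the list was 4452, 5844, 4484, 9058 and 9716 CPM in breast BrM and 1437 to 2747 CPM in lung BrM, against 4897 to 6742 CPM in non-tumor brain. The breast BrM libraries thus lay on both sides of the non-tumor range, and the lung BrM libraries all lay below it. No date in the library names held both breast and lung BrM libraries, so origin and date cannot be told apart in this contrast.

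Single interferon genes showed the range. Cxcl9, a chemokine that draws T cells, stood at 4.81, 86.8, 15.5, 187 and 200 CPM in breast BrM, against 0.256, 0.353, 0.218, 0.224 and 0.143 CPM in non-tumor brain (log2 change 8.67 ± 1.2, adjusted p = 4.4e-05, share 32.5%). It was higher than in lung BrM by 6.28 on the log2 scale (adjusted p = 0.0035). Tap1, a peptide pump for MHC class I, stood at 179, 276, 182, 419 and 510 CPM in breast BrM, against 142, 125, 103, 129 and 116 CPM in non-tumor brain (log2 change 1.35 ± 0.26, adjusted p = 0.00084), and exceeded lung BrM by 1.75 (adjusted p = 0.0016). Ifit1, an antiviral effector, averaged 88.6 ± 42.6 CPM in breast BrM and 12.1 ± 6.22 CPM in lung BrM, against 220 ± 50.5 CPM in non-tumor brain. It fell by 1.31 ± 0.39 against non-tumor brain and was higher than in lung BrM by 2.87 (adjusted p = 0.0014). The transcription factor Irf8 rose by 5.21 ± 0.53 in breast BrM and showed no called difference from lung BrM (log2 difference 0.22, adjusted p = 0.86). With the date as a covariate Tap1 lost its call against non-tumor brain, and with limma-voom in place of edgeR Cxcl9 did.

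MHC class I genes rose in 8 of 23 cases, or 3 with the date covariate and 5 with the label grouping, and 10 of 23 were higher in breast than in lung BrM. Their summed level was 12170, 15400, 12990, 21040 and 22740 CPM in breast BrM and 6209 to 10610 CPM in lung BrM, against 9666 to 12190 CPM in non-tumor brain. The same libraries, those of mice 53072 and 53142, were highest for the interferon, MHC class I and MHC class II lists. H2-K1, a classical heavy chain, stood at 1822, 3157, 2112, 4100 and 4075 CPM in breast BrM, against 1793, 1124, 1113, 1552 and 1424 CPM in non-tumor brain (log2 change 1.12 ± 0.27, adjusted p = 0.0051, not called with the date as a covariate). H2-Q7 and H2-Q6 rose by 3.61 ± 0.51 and 3.08 ± 0.58 and belong to a family of near copies, so these values are uncertain.

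**Figure D5:**
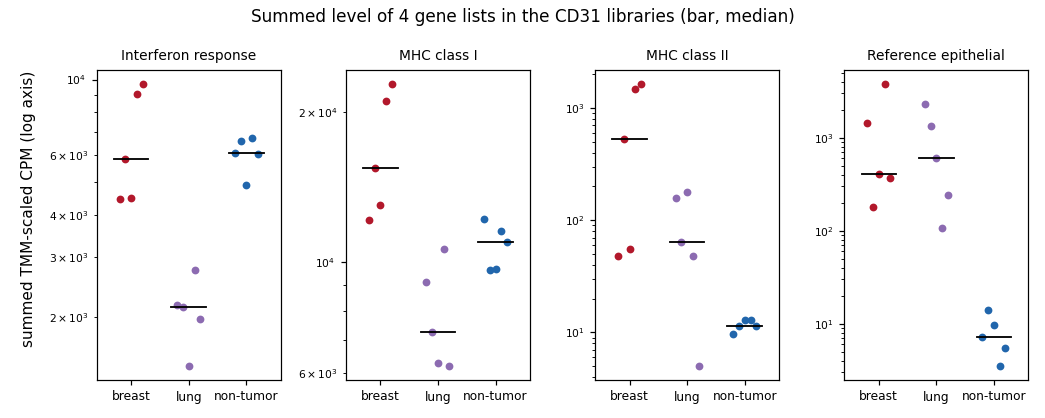
Summed TMM-scaled CPM (log axis, a separate scale per panel) of the interferon, MHC class I, MHC class II and epithelial reference lists in each of the 5 breast BrM, 5 lung BrM and 5 non-tumor CD31 libraries, with the median as a bar. Interferon sums are 4452 to 9716 CPM in breast BrM and 1437 to 2747 CPM in lung BrM, against 4897 to 6742 CPM in non-tumor brain, while epithelial sums are raised in both tumor groups.

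The promoters of Cxcl10 and Isg15 are shown as interferon genes that differed between the origins. Cxcl10, a T cell chemokine, averaged 196 ± 102 CPM in breast BrM and 15.8 ± 8.04 CPM in lung BrM, against 4.59 ± 3.92 CPM in non-tumor brain (log2 change against non-tumor brain 5.42 ± 0.65, share 76.6%, and against lung BrM 3.63, adjusted p = 0.0031). Isg15, a ubiquitin-like modifier, averaged 95.8 ± 27.7 CPM in breast BrM and 27.1 ± 7.95 CPM in lung BrM, against 65.1 ± 17.5 CPM in non-tumor brain. It was not called against non-tumor brain (log2 change 0.56 ± 0.26, adjusted p = 0.12) and was higher than in lung BrM by 1.82 (adjusted p = 0.0014). The RefSeq windows of 250 bases before to 50 bases after the start (GRCm38.p6, strand -) are chr5:92348840-92349139 for Cxcl10 and chr4:156200769-156201068 for Isg15, with matches to GAAA, any 2 bases and GAAA again, the core of the interferon-stimulated response element (ISRE), in capitals.
Cxcl10: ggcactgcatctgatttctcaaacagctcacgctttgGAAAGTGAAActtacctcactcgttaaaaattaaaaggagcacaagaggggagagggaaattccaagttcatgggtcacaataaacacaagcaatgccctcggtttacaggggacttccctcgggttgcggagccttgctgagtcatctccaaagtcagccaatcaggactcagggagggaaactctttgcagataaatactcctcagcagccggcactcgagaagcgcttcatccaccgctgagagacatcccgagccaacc
Isg15: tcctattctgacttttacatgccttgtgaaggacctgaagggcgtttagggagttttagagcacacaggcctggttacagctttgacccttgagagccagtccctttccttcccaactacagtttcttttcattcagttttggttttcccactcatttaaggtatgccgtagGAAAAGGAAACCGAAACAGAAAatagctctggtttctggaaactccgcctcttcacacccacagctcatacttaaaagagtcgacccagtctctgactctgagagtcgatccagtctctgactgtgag
Cxcl10 held 1 match and Isg15 3 overlapping ones, and neither held TTCNNNGAA, the core of the gamma-activated site. Windows were found for 31 of the 40 interferon genes. The ISRE core, on either strand, occurred in 18 of their 36 windows (50%), against 3.44% of all windows, and TTCNNNGAA in 11 (30.6%), against 8.30%.

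Epithelial genes and genes of the mammary tumor model were among the rises kept apart. Of 16 tested epithelial reference genes 15 rose, of 9 keratins 6, and of 20 mammary and tumor secretory genes 18, against 18.6% of all genes. The scale behind the share was set on the median ratio of the reference genes, keratins included, so large shares among them are by construction. Single shares still varied, with 57.8% for Epcam, 60.7% for Cldn4 and 100% for Krt8. Of the 18 secretory genes 17 had a share of at least 50%. The secretory rises numbered 11 with the label grouping or without mice 51950 and 53072. Slpi, a secreted protease inhibitor of epithelia, stood at 69.8, 7.17, 2.46, 59.4 and 4.38 CPM in breast BrM and had 2 counts over the non-tumor libraries, a ratio of 1433 (95% counting interval 396 to 11840). Its log2 change was 9.97, and 9.34 without mouse 51950. Cldn4, an epithelial claudin, stood at 53.03, 6.48, 5.32, 145 and 8.13 CPM in breast BrM and at no more than 0.235 CPM in non-tumor brain (log2 change 9.75, 8.48 without mouse 53072 and 12.58 without non-tumor mouse 54132). Both genes were highest in the libraries of mice 51950 and 53072 and exceeded lung BrM, Slpi by 7.84 (adjusted p = 0.0020) and Cldn4 by 9.26 (adjusted p = 0.0015) on the log2 scale. Krt7 had 3 counts over the non-tumor libraries and a ratio of 751 (257 to 3644). The exception among the secretory genes was Lalba, the milk protein alpha-lactalbumin, at 1.95 to 4.94 CPM in breast BrM with a share of 0%. Lrrc66 had a log2 change of 9.92 (9.20 without mouse 53072, and 12.4 without non-tumor mouse 54132). Tgfbi, a secreted matrix adaptor, stood at 78.2, 58.5, 63.1, 31.6 and 120 CPM in breast BrM, with its highest value in mouse 53142 and its lowest in mouse 53072 (log2 change 9.73, 10.54 without non-tumor mouse 54135, share 176%). Its order over the libraries was unlike that of Slpi and Cldn4, and the source of its RNA was not tested.

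Markers of other cells were low next to the endothelial genes, and their part in the results was not tested. Pericyte markers summed to 72.5 to 134 CPM in breast BrM and 18.4 to 55.3 CPM in non-tumor brain, with 5 of 13 up, all 5 with a share of at least 50%, and 2 down. Pericyte markers called up numbered 2 with the date covariate, and 7 were down in the label grouping. Smooth muscle markers summed to 331 to 634 CPM in breast BrM and 529 to 594 CPM in non-tumor brain. Of 10 tested 1 fell, near the 11.4% of all genes, or 6 with the label grouping. Fibroblast markers summed to 11.4 to 31.5 CPM in breast BrM and 18.1 to 38.1 CPM in non-tumor brain. Astrocyte markers summed to 797 to 1639 CPM in breast BrM and 391 to 499 CPM in non-tumor brain, with 6 of 11 up and 1 down. The share was at least 50% for 5 of the 6 rises, or for 1 with mural RNA taken out. Astrocyte rises numbered 3 with the date covariate, with limma-voom or without mice 51950 and 53072. The label grouping gave 0 rises and 2 falls. Most of the astrocyte sum lay in Mfge8, which averaged 620 CPM in breast BrM and 283 CPM in non-tumor brain, and in the gap junction gene Gja1 (391 and 129 CPM, log2 change 1.602 ± 0.22, share 8.97%). The astrocyte marker Aqp4 was at 0.106 CPM in breast BrM and 1.02 CPM in non-tumor brain, too low to be tested. Neuron markers summed to 12.9 to 16.5 CPM in breast BrM and 50.3 to 85.0 CPM in non-tumor brain. In the microglia and macrophage list 5 of 15 rose, and the largest rise was that of Ms4a6d, at 76.3, 62.9, 17.2, 59.3 and 126 CPM in breast BrM and at no more than 0.118 CPM in non-tumor brain (log2 change 9.90 ± 0.68, adjusted p = 3.2e-08, share 2.18%). The other 4 rises of that list had a share of at least 50%. The rises of the list numbered 1 with the date covariate, 1 without mice 51950 and 53072, 2 with limma-voom and 3 with the label grouping. The microglial markers P2ry12 and Tmem119 averaged 0.211 and 0.620 CPM in breast BrM and 0.182 and 0.148 CPM in non-tumor brain. Of the lymphocyte and granulocyte markers 3 of 15 were high enough to be tested and none was called with edgeR or DESeq2, while 1 had an unadjusted p under 0.05 and 1 was called with limma-voom. Platelet and erythroid markers summed to 25.9 to 616 CPM in breast BrM and 59.6 to 897 CPM in non-tumor brain.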

How the data were processed

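RNA was sequenced from 28 libraries of sorted CD31 or PDGFRb cells. Per the labels, libraries were made with SMART-Seq HT and Nextera XT, a chemistry that does not record the strand, so overlapping and antisense genes cannot be told apart. The tools named in the submitters' processing notes are STAR (2.7.9a), RSEM (1.3.3), edgeR (3.36.0) and limma (3.50.3), with build mm10. The annotation release is not given in the sources used here. The authors deposited expected counts, estimated reads per gene without scaling, for 53647 gene IDs, of which 52093 matched a symbol of the reference by unversioned ID. FPKM values and log2 values that the authors deposited for 18665 genes served as alternatives only. Rows without a symbol held 0.182% to 1.57% of the counts of a CD31 library.

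Expected counts were rounded, filtered with filterByExpr and scaled by TMM. The 15 CD31 libraries (breast BrM, lung BrM and non-tumor, 5 each, grouped by title) were fitted together with the quasi-likelihood test of edgeR 4.0.16 (R 4.3.3), for breast BrM minus non-tumor and breast BrM minus lung BrM. A gene was called where its p, adjusted over all genes by Benjamini-Hochberg, was under 0.05. The carry-over scale of a mouse is the median ratio of CD31 to PDGFRb level over epithelial reference genes with at least 10 CPM in the PDGFRb library. CD31 totals were 13634440 to 20838345 counts in breast BrM and 17038992 to 20804070 counts in non-tumor brain, so that 3 counts equal 0.144 to 0.220 CPM in breast BrM and 0.144 to 0.176 CPM in non-tumor brain. Reads carry no molecular barcodes, so counting intervals and floors cover counting error only. The closest CD31 libraries of a group differed by more than sampling noise (chi-square per degree of freedom 17.6). The libraries of a group carry different mouse numbers, and p-values measure the spread between these samples.

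The comparison, the 60 gene lists and the naming rule were chosen with earlier results of these data known. The rule names the genes of the sort gates, 6 further genes, the 10 largest falls, the 10 largest rises with a share under 25% and the 5 largest with a share of 50% or more (log2 of the mean CPM at least 3, no overlap, no families of near copies), up to 4 called members per list, and those of the largest changes that differ from lung BrM. Slc2a1, Abcb1a, Slc29a1, Cdh5, Kdr, Vwf, Apln, Cdk1, Ccnb2, Igf1r, Ifit1, Isg15, Cxcl10, Mfge8, Aqp4, P2ry12, Tmem119, Flt4, Prox1, Pdpn, Olig1 and Olig2 were named after their values were seen. A few genes the rule would name are not reported here. Promoters come from the RefSeq table for GRCm38.p6.

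The test was also run on simulated counts for breast BrM against non-tumor (14876 genes, 50 changed genes per fold). It found 28% of genes changed by a fold of 2, 52% at 4, 88% at 16 and 100% at 64, and 0.0409% of the unchanged genes were called. Far fewer genes changed in the simulation than the 30.1% called in the data. The limit set by the Benjamini-Hochberg adjustment depends on that fraction, so these rates do not carry over to the comparison itself. Alternatives were other size factors (RLE, upper quartile), DESeq2 1.42.0, limma 3.58.1 (voom, or trend with the deposited log2 values or with log2 FPKM after adding 1 or 0.1), other filters, fewer libraries, the date in the library names as a covariate, and other settings of the carry-over share. Leaving out mice 51950 and 53072 together, taking mural RNA out of the share, and the counts per list with the date or the other grouping of mouse 54135 were added after the data had been seen.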

Additional observations from a re-analysis of the deposited data

Results flagged for a closer look

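In 16 of 391 sets of 5 libraries (1 gene in 1 group) a single library stood apart from the other 4 by more than 0.71 of the whole range of log2(CPM + 1). Chance alone places about 1 set in 20 there, so the number of such sets is near that level. In breast BrM these were Ttr in mouse 51950 (2.31 CPM, others 0 to 0.0560), Stmn2 in mouse 51950 (10.7 CPM, others 6.38 to 7.17), Gkn3 in mouse 52599 (8.25 CPM, others 3.30 to 4.26), Ccne1 in mouse 52599 (4.01 CPM, others 13.3 to 17.3), Bcl3 in mouse 52599 (47.9 CPM, others 13.9 to 18.8) and Fosl2 in mouse 52599 (389 CPM, others 119 to 168). The library of mouse 53072 stood apart for Nrp2 (101 CPM, others 169 to 207) and Fkbp5 (37.5 CPM, others 53.3 to 58.3), and that of mouse 53142 for Car4 (34.7 CPM, others 154 to 251) and Itga2 (23.1 CPM, others 9.10 to 11.8). In non-tumor brain mouse 54135 stood apart for Slc22a8 (1275 CPM, others 1573 to 1707), Vegfc (21.3 CPM, others 29.8 to 33.7), Nectin2 (21.3 CPM, others 28.5 to 29.9) and Sdf2l1 (13.6 CPM, others 6.33 to 7.82). Mouse 54132 stood apart for Itga3 (39.5 CPM, others 55.7 to 62.9) and mouse 56740 for Fkbp10 (25.1 CPM, others 12.7 to 15.5). Each of these 16 genes kept its direction and its call without the library that stood apart, and for Ttr the log2 change was then -11.54, against -6.97 with it.

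Among the genes with the largest changes, 4 differed between breast and lung BrM in the direct contrast (edgeR's quasi-likelihood test). Ttr was lower in breast BrM (log2 difference -5.21, adjusted p = 0.043), Bdkrb2 was higher by 1.99 (adjusted p = 0.032), Slpi by 7.84 (adjusted p = 0.0020) and Cldn4 by 9.26 (adjusted p = 0.0015). Origin and date cannot be told apart in these differences.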

How the results depend on the processing

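Rises numbered 2365 to 2659 and falls 1325 to 1563 when each library was left out in turn. Rises numbered 1477 when the cell type label decided the group of mouse 54135 and 1353 with the date as a covariate, and falls 913 and 938 under these settings. Falls numbered 3333 when the 10 breast BrM and non-tumor libraries were fitted alone and 942 with a required absolute log2 change of at least 1. Rises kept apart for their share numbered 1865 with a limit of 25%, and 724 to 1453 without each mouse in turn, with the lowest values without mouse 51950 (724) and mouse 53072 (769). Against lung BrM, DESeq2 placed 557 genes higher and 315 lower in breast BrM, and limma-voom 404 higher. The cause of these shifts was not tested. Icam1, which was not called, had log2 changes of -0.00088 to 0.343 without each library in turn, the negative one without mouse 52599. With mouse 54135 grouped by its cell type label Angptl2 (-2.97), Abcc9 (-1.75), Efemp1 (-3.34), Fbln1 (-0.94) and Aldoc (-1.12) turned negative. Of 218 called genes named by rule, 120 kept their call in every alternative that tested them, 0 lost it with DESeq2, 16 with limma-voom and 26 in at least 1 leave-one-out fit. Each of the 2 dates shared by the groups holds 1 non-tumor library. No paired analysis was possible because the breast BrM and non-tumor mice share no mouse number. Depth limits genes near 3 counts per library.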

Other observations

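In the list of choroid and lymphatic endothelium 5 of 10 tested genes rose and 1 fell, against 18.6% and 11.4% of all genes. The fall was that of Ttr, made in bulk by choroid plexus, at 3.18 to 154 CPM in non-tumor brain. Whether its RNA came from endothelium was not tested. Flt4, the receptor for VEGF-C, averaged 300.5 CPM in breast BrM and 172 CPM in non-tumor brain (log2 change 0.80 ± 0.17, adjusted p = 0.0021, share 0.0454%). Prox1 and Pdpn, which mark lymphatic vessels, were too low to be tested. Of 9 tested oligodendrocyte markers 1 rose, the transcription factor Sox10. It stood at 58.3, 7.48, 13.6, 103 and 14.3 CPM in breast BrM and at no more than 0.672 CPM in non-tumor brain (log2 change 7.30, 6.54 without mouse 53072 and 8.08 without non-tumor mouse 56727, share 124%). Its level was highest in the libraries of mice 53072 and 51950, as were those of Epcam and Krt8, and the source of the Sox10 RNA was not tested. Olig1 and Olig2, which mark the oligodendrocyte lineage, were too low to be tested.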
